A study of Mus musculus with 28 samples.

Results

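The 38 genes described here are neutrophil genes: cytosolic proteins, granule proteins, receptors, surface proteins, secreted factors and enzymes or regulators by which this white blood cell is known in mice. They are 38 of the 35880 Ensembl gene identifiers in a count table of mouse lung RNA, and each of the 38 symbols matched 1 row. The list was drawn up with the levels after a single carbon black exposure in view, so the contrast of that group with sham at day 1 is given as a description, and nothing is read from the number of genes that differ in it. The RNA came from whole-lung homogenates of male wild-type C57BL/6 mice, an inbred strain, labelled as 8-12 weeks of age (the treatment text gives 8). Mice inhaled sham air, carbon black (fine particles of elemental carbon) at 10 mg/m3, ozone (O3, an oxidant gas) at 2 ppm, or both together, for 3 hours per exposure. Groups of 4 libraries followed 1 exposure (day 1) and groups of 3 libraries followed 4 exposures (day 4), 28 libraries in 8 groups, and no group carried a transgene or a deleted gene. How long after the last exposure the lungs were taken was not stated in the labels, and the effects of day and of exposure number cannot be told apart. No label states that the libraries of a group are from different mice, and p-values therefore refer only to the variation among the libraries at hand.

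Neutrophils are short-lived phagocytes that mature in the bone marrow, circulate in blood and enter the lung when chemokines bind the receptor Cxcr2. During maturation they make granule proteins in waves, primary granules (Mpo, Elane) first, then secondary granules (Ltf, Camp, Ngp) and last gelatinase granules (Mmp9). The mature cell has largely stopped making primary and secondary granule transcripts and carries those of Cxcr2, Csf3r, Il1b and Retnlg, with calprotectin (S100a8 and S100a9) as its most abundant cytosolic protein. Several of the 38 genes are also made by other lung cells. Among them are Ltf, Hp and Lrg1 (epithelium, endothelium or glands), Hdc (mast cells) and G0s2 (fat-storing cells), and this list is not complete. In a homogenate, fewer cells of a type and less RNA per cell cannot be told apart.

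Promoter windows of 4 of the genes are shown because they stand for the different patterns found below: S100a8 and Cxcr2 for the genes highest after a single carbon black exposure, Ngp for a granule gene high in only some of those libraries, and Ltf for a granule gene highest after repeated co-exposure. Each window runs 5′ to 3′ on the strand of the gene, from 250 bases before to 50 bases after the start site, in RefSeq's GRCm38.p6 assembly. Capitals mark GAGGAA, a core sequence bound by PU.1, or TTGCNNAA, a core sequence bound by C/EBP factors, on either strand. The S100a8 window lies at chr3:90668821-90669120 (+), that of Cxcr2 at chr1:74153744-74154043 (+), that of Ngp at chr9:110419558-110419857 (+) and that of Ltf at chr9:111019042-111019341 (+).
S100a8: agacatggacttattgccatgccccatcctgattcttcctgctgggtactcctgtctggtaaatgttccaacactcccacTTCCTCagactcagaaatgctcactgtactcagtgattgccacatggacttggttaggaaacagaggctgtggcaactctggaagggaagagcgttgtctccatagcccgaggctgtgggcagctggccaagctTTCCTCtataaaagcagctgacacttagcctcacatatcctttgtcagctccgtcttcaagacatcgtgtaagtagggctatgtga
Cxcr2: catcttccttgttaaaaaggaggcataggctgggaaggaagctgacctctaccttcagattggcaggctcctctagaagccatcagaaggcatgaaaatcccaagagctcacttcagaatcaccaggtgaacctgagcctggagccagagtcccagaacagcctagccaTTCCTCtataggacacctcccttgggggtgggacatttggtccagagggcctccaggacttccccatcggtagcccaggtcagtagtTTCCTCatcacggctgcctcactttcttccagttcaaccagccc
Ngp: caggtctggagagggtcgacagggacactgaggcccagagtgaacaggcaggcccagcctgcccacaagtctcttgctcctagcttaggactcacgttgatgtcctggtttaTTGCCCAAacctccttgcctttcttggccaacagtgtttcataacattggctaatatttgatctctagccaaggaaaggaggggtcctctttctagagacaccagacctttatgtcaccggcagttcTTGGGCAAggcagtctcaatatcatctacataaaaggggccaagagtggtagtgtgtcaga
Ltf: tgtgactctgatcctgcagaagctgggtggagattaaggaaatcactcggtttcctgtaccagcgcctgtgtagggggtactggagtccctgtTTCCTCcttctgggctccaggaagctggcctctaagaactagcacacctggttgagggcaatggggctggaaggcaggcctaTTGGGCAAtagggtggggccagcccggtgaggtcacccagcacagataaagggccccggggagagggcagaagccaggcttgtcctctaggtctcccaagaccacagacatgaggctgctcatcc

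In S100a8 the GAGGAA matches began 170 and 36 bases before the start site, both on the opposite strand and so printed as TTCCTC. Cxcr2 held 1 match 81 bases before the start site and 1 at base 6 after it. Ngp held 2 TTGCNNAA matches, 138 and 11 bases before the start site, and no GAGGAA. The Ltf window held both, TTGCNNAA 75 bases and GAGGAA 157 bases before the start site. A RefSeq promoter entry was found for 35 of the 38 genes. GAGGAA was in the window of 19 of the 35 (54.3%) and in 28.3% of 32851 mouse promoters of the same length, and TTGCNNAA in 8 (22.9%) against 10.8%, both strands searched. Neither motif contains the other. These counts describe letters in a window and were not tested. By the GENCODE M21 annotation of GRCm38, the genes followed most closely below span chr3:90668978-90670035 (S100a8), chr3:90692632-90695721 (S100a9), chr1:74153989-74161246 (Cxcr2), chr4:126024550-126044440 (Csf3r), chr2:164940780-164955850 (Mmp9), chr2:129364570-129371139 (Il1b), chr16:48872621-48874496 (Retnlg), chr9:111019271-111042767 (Ltf) and chr9:110419747-110423012 (Ngp).

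Libraries held 5135443 to 9718685 estimated counts (median 7193063), and levels are CPM (a gene's counts per 1000000 counts of the library) after TMM scaling, which corrects library totals for composition. Pearson correlations across genes between libraries of 1 group lay between 0.943 and 0.985. Lung markers were present in all libraries, the summed level of 10 structural lung genes running from 36900 to 78700 CPM. Sham day 1 library 2 stood apart, with 607 CPM of the skeletal muscle gene Acta1 (0 to 1.15 in the other sham day 1 libraries) and 78 CPM of the brown fat gene Ucp1 (0 to 4.63), and it was also the sham library with the most S100a8. Acta1 was also at 269 CPM in ozone day 1 library 2, 215 in co-exposure day 4 library 3 and 123 in carbon black day 4 library 3, and at 2.85 CPM or less in the other 24 libraries. Carbon black day 1 library 2 stood apart in the other direction: 21 of the 38 genes lay within the range of the sham day 1 libraries there. It also held the most Cfd, a fat gene, of the 28 libraries, 764 CPM against 23 to 45.7 in the rest of its group. Sham day 1 library 2 was next, at 501 CPM. The sum of 7 muscle and fat genes was 1170 CPM in carbon black day 1 library 2 and 89.7 to 251 in the rest of its group. The part of fat transcripts in its neutrophil gene levels was not tested. Of the 38 genes, 35 passed the filter on low counts and were tested, and Stfa2, Camp and Mrgpra2a were not. Ly6g and Mrgpra2b passed through the carbon black day 1 libraries and reached at most 0.676 and 1.51 CPM, respectively, in all other groups. Ngp and Mgam also passed through those libraries. In the other groups Ngp reached 4.09 CPM in a single sham day 4 library and Mgam 2.16 in a single carbon black day 4 library, and both were at 1.33 CPM or less elsewhere.

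A single carbon black exposure gave the highest group mean of the 8 groups for 32 of the 38 genes. Carbon black day 1 library 3 was the highest of all 28 libraries for 27 genes and library 4 for 5. Within that group the order of libraries was 3, 4, 1, 2 for 29 genes and 4, 3, 1, 2 for another 4, so that the genes were high or low together. Libraries 1, 3 and 4 exceeded every sham day 1 library for 31 genes. With that group set aside, the highest mean was in carbon black day 4 for 21 genes and in co-exposure day 4 for 11. The lowest mean was in co-exposure day 1 for 21 genes. The counts in this paragraph were not made over all genes, so no share stands beside them. Those on carbon black day 1 rest on the levels that chose the genes and are a description only.

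**Figure D1:**
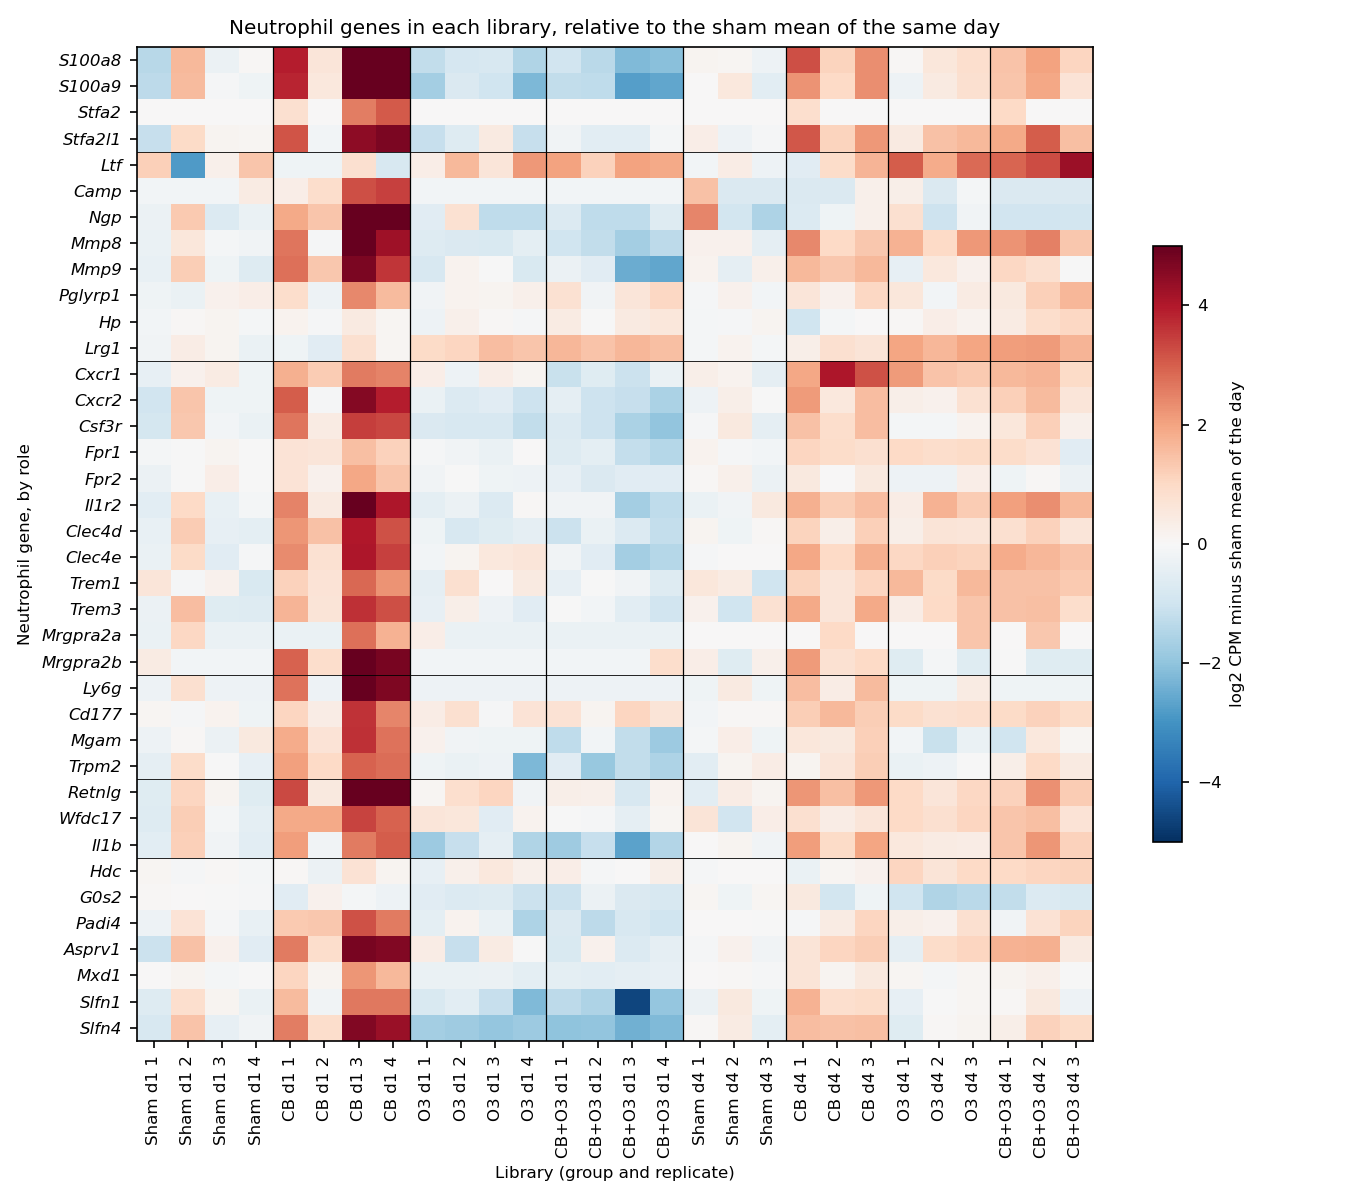
Level of each of the 38 neutrophil genes (rows, grouped by role) in each of the 28 libraries (columns) as log2 CPM minus the mean of the sham libraries of the same day; colours stop at 5 in either direction. Carbon black day 1 libraries 3 and 4 are the deepest red over most rows, library 1 is a lighter red, and library 2 is pale. The Ltf, Lrg1 and G0s2 rows follow other patterns.

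Calprotectin transcripts were among the 3 most abundant of the 38 per length after a single carbon black exposure. Group means were 1660 CPM per kb for S100a9, 890 for Hp (haptoglobin) and 862 for S100a8. The order of S100a8 and Hp depends on the length used. All exons of S100a8 together span 694 bases, while its longest coding transcript has 486. S100a8 stood at 284, 28, 1360 and 721 CPM in carbon black day 1 libraries 1 to 4, against 6.88, 57.1, 15.1 and 19 in sham. Library 2 of the carbon black group was therefore below library 2 of sham, and the groups overlapped only there. After ozone at day 1 S100a8 was at 7.59, 10.3, 10.5 and 6.31 CPM, and after co-exposure at 9.32, 6.97, 3.81 and 4.13. All 8 of these libraries were below 3 of the 4 sham libraries. At day 4 sham libraries held 16.7, 16.3 and 12.5 CPM, carbon black 143, 32.9 and 75.7, ozone 15.6, 22.2 and 26.9, and co-exposure 40.6, 61.2 and 32.4. Both groups given carbon black were above every sham day 4 library, and ozone alone overlapped sham.

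S100a9, the other calprotectin subunit, moved with S100a8. It was at 409, 41.6, 1970 and 1040 CPM after a single carbon black exposure and at 11.4, 87.2, 27.9 and 25 in sham. After ozone at day 1 it was at 8.77, 17.2, 14.3 and 5.89 CPM and after co-exposure at 12.2, 11.7, 4.09 and 4.56. At day 4 S100a9 was at 26.2, 38 and 18.2 CPM in sham, 125, 51.9 and 133 after carbon black, 22, 36.3 and 45.6 after ozone, and 69.9, 102 and 42.3 after co-exposure. The order of groups matched that of S100a8, with carbon black and co-exposure above all sham libraries at day 4. The ratio of S100a9 to S100a8 CPM lay between 1.44 and 1.48 in the 4 carbon black day 1 libraries although their levels differed widely. Over all 28 libraries it ran from 0.875 in carbon black day 4 library 1 to 2.33 in sham day 4 library 2.

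The stefins Stfa2 and Stfa2l1, inhibitors of cysteine proteases, share 96.5% of aligned transcript bases, so the split of reads between them is uncertain. Stfa2l1 was at 5.04, 0.282, 13 and 15.6 CPM after a single carbon black exposure and at no more than 0.89 CPM in sham day 1 libraries. Stfa2 had 25 counts over the carbon black day 1 group and 0 over sham, so it was at least 8.25-fold higher when the sham group is set at its floor of 3 counts.

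The granule genes did not move as 1 block. Mmp9 and Mmp8, the gelatinase and the neutrophil collagenase, followed calprotectin. Mmp9 was at 58, 21.4, 222 and 102 CPM after a single carbon black exposure and at 6.35, 20, 7.17 and 5.28 in sham, without overlap. It was at 4.72, 9.44, 8.3 and 4.76 CPM after ozone at day 1 and at 6.7, 5.61, 1.27 and 1.14 after co-exposure. At day 4 Mmp9 was at 8.9, 5.84 and 9.67 CPM in sham, 25.1, 20.8 and 25.4 after carbon black, 5.96, 11.5 and 9.2 after ozone, and 16.4, 14.2 and 7.92 after co-exposure. Carbon black alone was above sham without overlap at day 4. Mmp8 ranged from 1.27 to 292 CPM, highest in carbon black day 1 library 3.

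Ngp and Camp, a neutrophilic granule protein and the cathelicidin precursor, are secondary granule genes. Ngp was at 2.16, 1.41, 43.2 and 29.5 CPM after a single carbon black exposure and at 0.265, 1.33, 0.128 and 0.245 in sham. Camp was at 0.103, 0.282, 2.49 and 2.89 CPM in the same carbon black libraries and at 0, 0, 0 and 0.123 in sham, 40 counts over the group against 1 (39.6-fold, 95% exact counting interval 6.71 to 1600, which covers counting error only). The 2 genes were thus high in libraries 3 and 4 and low in library 1, in which S100a8 reached 284 CPM. After ozone at day 1 Ngp was at 0.169, 0.826, 0 and 0 CPM and after co-exposure at 0.131, 0, 0 and 0.142, and Camp had no count in these 8 libraries. At day 4 Ngp was at 4.09, 0.154 and 0 CPM in sham, 0.216, 0.41 and 0.676 after carbon black, 1.14, 0.113 and 0.431 after ozone, and 0.133, 0.142 and 0.144 after co-exposure. Camp was at 0.962, 0 and 0 CPM in sham at day 4, 0, 0 and 0.27 after carbon black, 0.284, 0 and 0.144 after ozone, and 0 in all co-exposure libraries. Outside carbon black day 1 the highest value of both genes was in a sham library, sham day 4 library 1. Ngp and Camp were near the detection limit in carbon black day 4, where S100a8 was at 32.9 CPM or more.

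Ltf, which encodes the iron-binding protein lactoferrin, was highest in the groups given ozone. It was at 84.7, 85.8, 175 and 57.4 CPM after a single carbon black exposure, against 230, 13.6, 119 and 258 in sham, with full overlap. Ozone at day 1 gave 125, 309, 152 and 452 CPM of Ltf and co-exposure 398, 220, 405 and 370. At day 4 Ltf was at 53.6, 77 and 49.1 CPM in sham, 39.8, 111 and 194 after carbon black, 480, 214 and 420 after ozone, and 441, 565 and 1140 after co-exposure. All 6 day 4 libraries with ozone were above all 6 without it. The low value of sham day 1 library 2, 13.6 CPM, was the lowest of the 28 libraries.

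Lrg1, a secreted leucine-rich glycoprotein, and Hp, haptoglobin, which binds free hemoglobin, also departed from the calprotectin pattern. Lrg1 was at 72.4, 55.5, 143 and 89.2 CPM after a single carbon black exposure and at 72.6, 108, 90.4 and 66.3 in sham, while ozone at day 1 gave 159, 178, 241 and 219 and co-exposure 265, 224, 260 and 237. Both ozone groups were above all sham libraries. Hp was the most abundant of the 38 genes per length in sham at day 1 (783 CPM per kb). It lay between 724 CPM in carbon black day 4 library 1 and 2940 CPM in co-exposure day 4 library 3. Pglyrp1, which binds bacterial peptidoglycan, ranged from 8.31 CPM in sham day 1 library 2 to 56.6 in carbon black day 1 library 3.

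**Figure D2:**
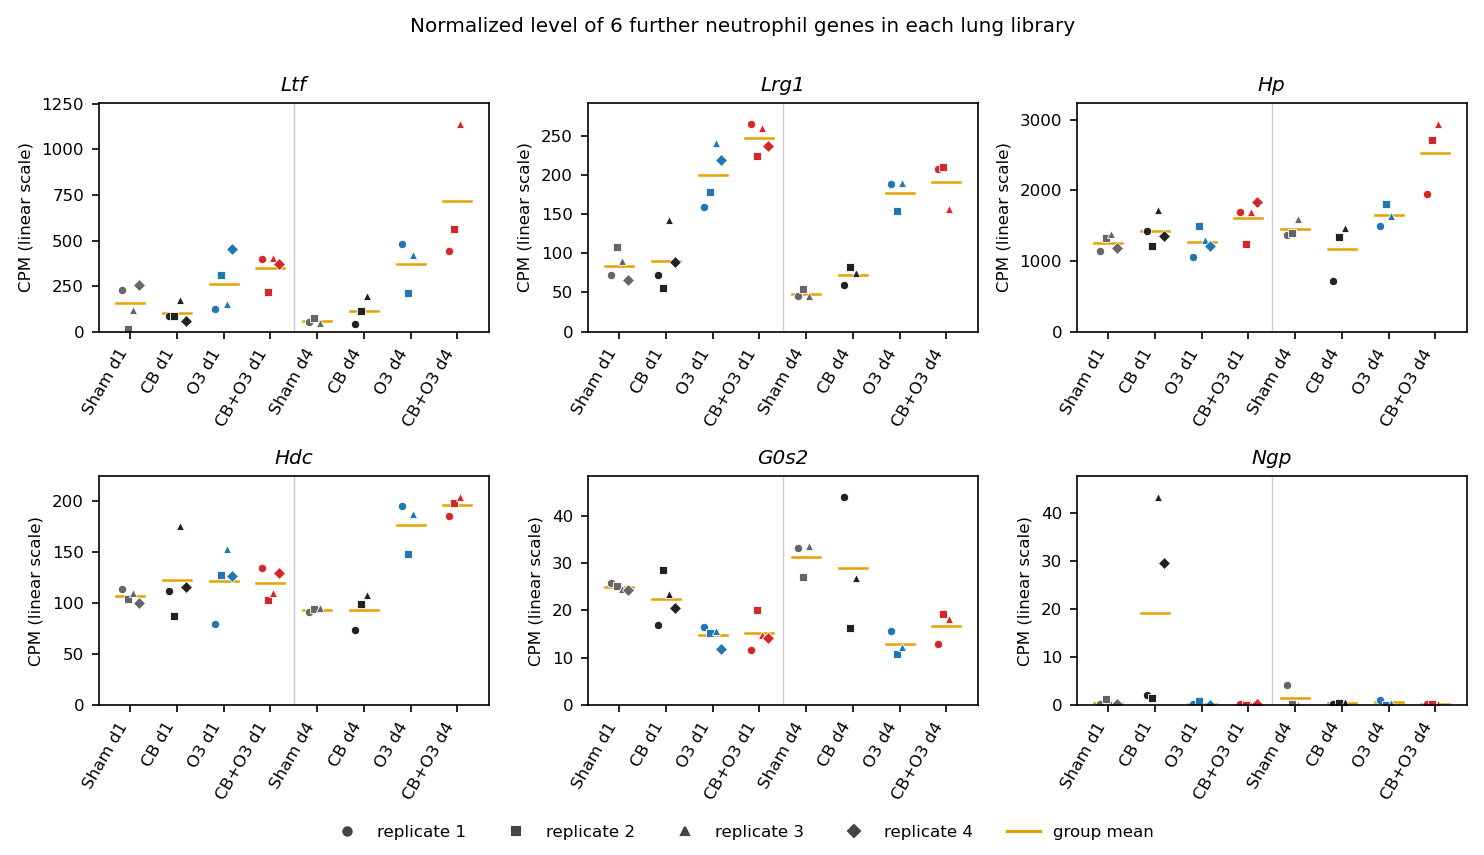
CPM on a linear scale of Ltf, Lrg1, Hp, Hdc, G0s2 and Ngp in each library (symbols give the replicate number) with the group mean (line). By group mean, Ltf and Lrg1 are highest and G0s2 lowest in groups with ozone, and Hdc is highest with ozone at day 4 only. Ngp is high only in carbon black day 1 libraries 3 and 4 (43.2 and 29.5 CPM).

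Among the receptors, Cxcr2 and Csf3r bind CXC chemokines and granulocyte colony-stimulating factor. Cxcr2 was at 58, 6.62, 170 and 107 CPM after a single carbon black exposure and at 3.44, 18.1, 5.89 and 5.89 in sham. Ozone at day 1 gave 5.4, 4.13, 4.57 and 3.22 CPM of Cxcr2 and co-exposure 4.99, 3.18, 2.96 and 2.14. At day 4 Cxcr2 was at 5.89, 8.6 and 6.88 CPM in sham, 31.6, 10.1 and 20.8 after carbon black, 8.8, 8.13 and 12.2 after ozone, and 16.4, 21.4 and 10.9 after co-exposure. As for S100a8, only carbon black day 1 library 2 lay within the sham range in its group, and both day 4 groups with carbon black were above sham.

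Csf3r was at 107, 21.7, 184 and 171 CPM after a single carbon black exposure and at 8.73, 42.3, 15.1 and 13 in sham. It was at 9.79, 9.32, 9.41 and 6.87 CPM after ozone at day 1 and at 9.98, 7.88, 5.36 and 3.99 after co-exposure. At day 4 Csf3r was at 17, 24.6 and 12.8 CPM in sham, 49.1, 32.1 and 51.3 after carbon black, 16.3, 16.1 and 19.8 after ozone, and 25.9, 40 and 20.7 after co-exposure. Co-exposure overlapped sham at day 4 for Csf3r, and carbon black alone did not.

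The other receptors were also highest after a single carbon black exposure, apart from Cxcr1. The decoy receptor Il1r2, which binds interleukin 1 without signalling, reached 46.6 CPM in carbon black day 1 library 3, with 0.661 to 2.37 in sham. The C-type lectins Clec4d and Clec4e, which bind microbial and dead-cell lipids or proteins, reached 58.3 and 43.5 CPM there. Fpr1 and Fpr2, receptors for formylated bacterial peptides, had narrower ranges, 4.56 to 35.8 and 4.85 to 31.8 CPM over the 28 libraries. Trem1 and Trem3, receptors that amplify inflammatory signals, reached 29 and 9.82 CPM. Mrgpra2b, a Mas-related G protein-coupled receptor, had 183 counts over the carbon black day 1 group and 1 over sham (181-fold, 95% exact counting interval 32.1 to 7200). Mrgpra2a had 20 against 3 (6.6-fold, 1.96 to 34.7). The 2 transcripts share 99.8% of aligned bases, so the split between them is uncertain.

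Ly6g, the surface marker most used to identify mouse neutrophils, was at 1.85, 0, 17.7 and 8.09 CPM after a single carbon black exposure, 195 counts in the group against 2 in sham (96.5-fold, 95% exact counting interval 26.4 to 803). Library 2 held no Ly6g count. Cd177, a membrane-anchored neutrophil antigen, ranged from 4.54 to 67.9 CPM over all libraries. Mgam, a maltase, and Trpm2, a cation channel, reached 11.9 and 25.4 CPM in carbon black day 1 library 3.

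Of the secreted factors, Retnlg, a resistin-like protein, was at 52.7, 7.32, 403 and 211 CPM after a single carbon black exposure and at 3.31, 11.3, 5.64 and 3.31 in sham. Ozone at day 1 gave 5.57, 9.44, 11.2 and 4.48 CPM and co-exposure 6.43, 6.21, 2.82 and 5.84. At day 4 Retnlg was at 2.89, 5.69 and 4.73 CPM in sham, 20.6, 12.6 and 20.4 after carbon black, 8.8, 6.55 and 8.91 after ozone, and 9.74, 21.7 and 10.7 after co-exposure. All 9 exposed libraries were above all 3 sham libraries at day 4 for Retnlg. Wfdc17, a small WAP-domain protein, ranged from 2.15 to 39.7 CPM.

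Il1b, the inflammatory cytokine interleukin 1 beta, was at 27.1, 5.35, 38.4 and 51.3 CPM after a single carbon black exposure and at 4.1, 14.4, 5.38 and 4.17 in sham. It was at 1.52, 2.6, 4.43 and 1.96 CPM after ozone at day 1 and at 1.58, 2.58, 0.705 and 1.99 after co-exposure, where every library was below every sham library. At day 4 Il1b was at 5.29, 5.69 and 4.62 CPM in sham, 22.9, 10.4 and 20.9 after carbon black, 7.53, 6.89 and 6.75 after ozone, and 14, 24.7 and 11.7 after co-exposure. All 9 exposed libraries were above sham at day 4, and both groups with carbon black were above ozone alone.

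**Figure D3:**
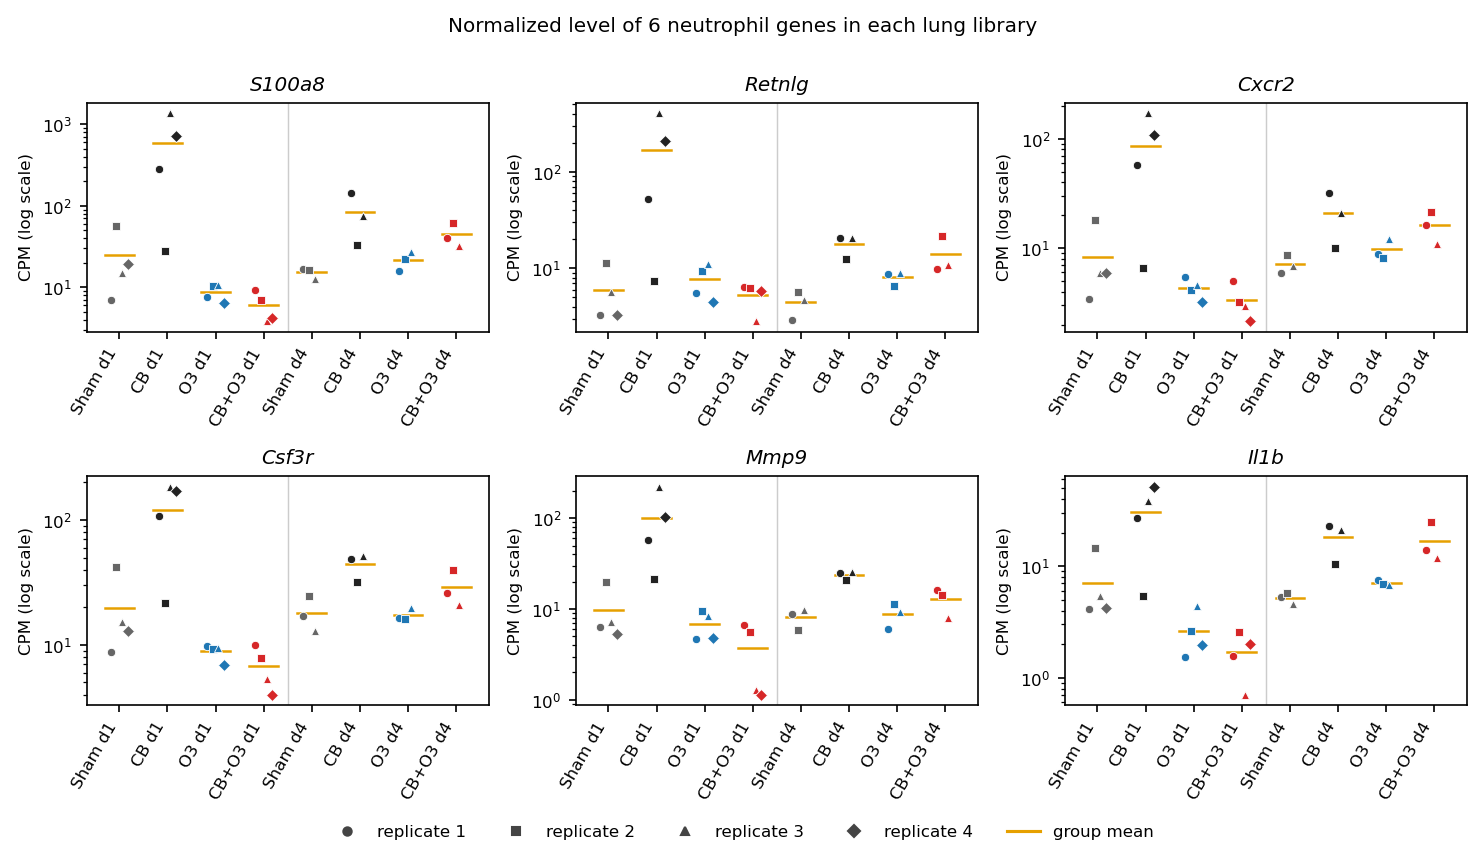
CPM on a log scale of S100a8, Retnlg, Cxcr2, Csf3r, Mmp9 and Il1b in each library (symbols give the replicate number) with the group mean (line). Carbon black day 1 libraries 1, 3 and 4 are the highest of each panel, library 2 falls among the sham libraries in 5 of the 6 panels, and day 4 carbon black and co-exposure lie between.

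Among the enzymes and regulators, Padi4, which citrullinates histones, Asprv1, an aspartic protease, Mxd1, an antagonist of Myc, and the schlafens Slfn1 and Slfn4 had their highest group mean after a single carbon black exposure. Padi4 was at 8.75, 9.01, 32.5 and 21.8 CPM there, so that library 2 was above library 1 and above all sham libraries, and at day 4 its carbon black libraries (3.46, 4.92 and 7.84) overlapped sham (3.55 to 3.69). The highest values of the other 4 were 30.5 CPM for Asprv1, 218 for Mxd1, 40 for Slfn1 and 145 for Slfn4. Hdc, which makes histamine, and G0s2, an inhibitor of triglyceride breakdown, had their highest means elsewhere. Hdc was at 112, 87, 176 and 116 CPM after a single carbon black exposure and at 114, 104, 110 and 99.8 in sham. G0s2 was at 16.9, 28.6, 23.5 and 20.5 CPM and at 25.7, 25.1, 24.5 and 24.2 in sham.

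The differences after a single carbon black exposure chose the genes, so their number was set by the choice and is a description only. A gene counts as called in this and the following comparisons at an adjusted p under 0.05 (edgeR quasi-likelihood test, Benjamini-Hochberg over 14887 genes). By that mark 29 of the 35 genes were higher after carbon black and none lower, beside 1.66% of all genes (1.57% higher and 0.0873% lower). Ly6g, Mrgpra2b, Ngp and Mgam, which passed the filter through these carbon black libraries, were among the 29. The 13 genes without overlap of these groups were all higher, beside 4.73% of all genes higher and 3.58% lower. The median log2 fold change was 2.63 over the 35 and 0 over all genes. In a fit of the 8 compared libraries alone the number called was 0.

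Carbon black at day 4, after 4 exposures, gave higher levels of most neutrophil genes without overlap, but only Cxcr1 passed the test. These libraries are not those of the contrast that chose the genes, but earlier results from them were known when the list was drawn up. Cxcr1, a chemokine receptor, was at 1.73, 8.2 and 4.46 CPM after carbon black at day 4 and at 0.361, 0.307 and 0.107 in sham. Every carbon black library was above every sham library. Cxcr1 rose by a log2 fold change of 4.20 ± 0.58 (SE; adjusted p = 0.000683, edgeR quasi-likelihood test, n = 3 and 3), from 0.258 ± 0.13 to 4.8 ± 3.2 CPM (SD). This was 1 gene of 35, where 0.208% of all genes passed (0.161% higher and 0.047% lower). The number called over all genes rested on single libraries: 31 in the fit of all libraries, 644 without carbon black library 3 and between 8 and 17 without any other one of the 6, with 1 of the neutrophil genes in each case. In a fit of these 6 libraries alone Cxcr1 did not pass, and with DESeq2 Fpr1 passed in its place. Cxcr1 shares 70.1% of aligned transcript bases with Cxcr2.

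The libraries of carbon black and sham at day 4 did not overlap for 24 of the 35 genes tested, all higher after carbon black, where 7.93% of all genes were higher and 7.65% lower without overlap. Among the 24 were Mrgpra2b (14 counts over the group against 4 in sham) and Mgam (31 against 19), which passed the filter through carbon black day 1. Log2 fold changes were above 0 for 31 of the 35, with a median of 1.23 against 0.01 for all genes, and 13 had an unadjusted p under 0.05. By role the median log2 fold change was 2.46 for the cytosolic genes, 0.67 for the granule genes, 1.53 for the receptors, 1.19 for the surface genes, 1.79 for the secreted factors and 0.61 for the enzymes and regulators. S100a8 had a log2 fold change of 2.46 ± 0.90 (adjusted p = 0.206), Retnlg of 2.01 ± 0.96 (adjusted p = 0.325) and Il1b of 1.79 ± 0.58 (adjusted p = 0.159), each with 3 libraries of 3 above sham and none past the edgeR threshold.

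Ozone at day 1 gave higher Lrg1 and lower G0s2, and no other of the 35 genes passed. Lrg1 rose by 1.24 ± 0.21 on the log2 scale (adjusted p = 0.000309, edgeR), from 84.3 ± 19 to 199 ± 37 CPM. G0s2 was at 16.5, 15.2, 15.6 and 11.8 CPM, below all sham libraries, and fell by 0.75 ± 0.22 (adjusted p = 0.0252). The 2 calls compare with 11.5% of all genes (6.82% higher and 4.63% lower), and the median log2 fold change was -0.49 over the 35. The sham libraries of this comparison are those that entered the choice of genes. Without sham library 1, sham library 3 or ozone library 4, G0s2 no longer passed and the count was 1. Over all genes the calls were 1250, 1161 and 904 in these fits and 1705 in the fit of all libraries. Libraries did not overlap for 1 gene that was higher and 4 that were lower, where 12% and 9.23% of all genes did so.

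A single co-exposure gave higher Lrg1 and lower levels of 6 of the 35 genes, 20.0% in all, near the 19.2% of all genes that passed (10.1% higher and 9.09% lower). Lrg1 rose by 1.55 ± 0.21 (log2; adjusted p = 1.55e-05, edgeR), to 247 ± 19 CPM. Il1b fell by 2.01 ± 0.61 (adjusted p = 0.0243), Fpr1 fell by 0.90 ± 0.24 (adjusted p = 0.0092) and G0s2 fell by 0.72 ± 0.22 (adjusted p = 0.021). Fpr1 was at 8.01, 8.94, 5.36 and 4.56 CPM after co-exposure and at 11.6, 12.5, 13.7 and 12.5 in sham, without overlap. Slfn4 fell by 2.65 ± 0.81 (adjusted p = 0.0248), Slfn1 fell by 2.21 ± 0.62 (adjusted p = 0.0154) and Trpm2 fell by 1.48 ± 0.50 (adjusted p = 0.0401). These falls too are against the sham libraries that entered the choice of genes. All 4 co-exposure libraries were below all sham libraries for each of these 6 genes.

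The falls after a single co-exposure leaned on sham day 1 library 2, the library with 607 CPM of Acta1. Without it 3 genes passed and Trpm2, Il1b, Slfn1 and Slfn4 no longer did, with Il1b at a log2 fold change of -1.41 and Slfn4 at -1.91. The count was 3 without co-exposure library 3 and 4 without co-exposure library 4. With sham library 2 and carbon black library 2 of day 1 both left out it was 6, without Trpm2. Over all genes 2854 were called in the fit of all libraries, 2075 without sham library 2 and 2108 with both left out. The calls over all genes were 1771 without co-exposure library 3 and 2295 without co-exposure library 4. Libraries did not overlap for 10 genes that were lower, where 10.4% of all genes were lower without overlap: the 6 that fell and Mmp8, Fpr2, Padi4 and Mxd1. Monocyte genes were lower in the same comparison, with 6 of 12 tested past the threshold and Cx3cr1, the fractalkine receptor, at 6.49 against 14.4 CPM. Their part in the result was not tested.

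Ozone at day 4 gave higher Ltf, Lrg1, Cxcr1, Fpr1, Trem1 and Hdc and lower G0s2, 7 of the 35 genes or 20.0%, near the 20.8% of all genes that passed (11.7% higher and 9.07% lower). Ltf rose by 2.64 ± 0.75 (log2; adjusted p = 0.0162, edgeR), from 59.9 ± 15 to 372 ± 140 CPM. Lrg1 rose by 1.88 ± 0.25 (adjusted p = 5.45e-06), from 45, 54.7 and 45.2 CPM in sham to 188, 154 and 190. Both genes were above sham in all 3 libraries. Hdc was at 195, 148 and 188 CPM against 90.9, 94.3 and 95.6 in sham and rose by 0.92 ± 0.20 (adjusted p = 0.00166). Fpr1 was at 17.6, 16.1 and 17 CPM against 9.74, 8.45 and 7.95 and rose by 0.95 ± 0.27 (adjusted p = 0.0112). G0s2 was at 15.6, 10.7 and 12.2 CPM against 33.1, 27 and 33.5 and fell by 1.29 ± 0.25 (adjusted p = 0.000584). None of these 3 overlapped sham.

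The calprotectin pattern was not among these calls. S100a8 had a log2 fold change of 0.52 ± 0.92 (adjusted p = 0.740) after ozone at day 4, Mmp9 of 0.12 ± 0.71 (adjusted p = 0.927) and Csf3r of -0.04 ± 0.59 (adjusted p = 0.973). Cxcr1 rose by 2.37 ± 0.63 (adjusted p = 0.00768, edgeR), with 1.99, 1.13 and 1.01 CPM, and Trem1 rose by 1.41 ± 0.50 (adjusted p = 0.0473), with 5.96, 3.73 and 6.04 CPM against 2.77, 2.46 and 0.752 in sham. Without sham day 4 library 3 the count was 3, and Ltf, Cxcr1, Fpr1 and Trem1 no longer passed. Over all genes 2190 were called in that fit and 3090 in the fit of all libraries. Ltf also did not pass without sham library 1 or ozone library 1, nor Trem1 without sham library 2, ozone library 1 or ozone library 3. The median log2 fold change was 0.50 over the 35, and 15 genes were higher and 1 lower without overlap, where 22.5% and 20.6% of all genes were.

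Co-exposure at day 4 gave 11 higher and 1 lower of 35. This was 34.3% of the neutrophil genes, a share near the 34.1% of all genes that passed (17.7% higher and 16.3% lower). Of the 8 with the smallest p, Lrg1 rose by 1.99 ± 0.25 (log2; adjusted p = 1.31e-06, edgeR), with 207, 210 and 156 CPM. Hdc rose by 1.07 ± 0.20 (adjusted p = 0.000215) with 186, 198 and 204 CPM. Ltf rose by 3.58 ± 0.78 (adjusted p = 0.00131), from 59.9 ± 15 to 716 ± 370 CPM. The 3 libraries were above all sham libraries for each of these genes.

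Hp was at 1950, 2710 and 2940 CPM against 1370, 1400 and 1590 in sham and rose by 0.80 ± 0.20 (adjusted p = 0.00247). Cxcr1 rose by 2.14 ± 0.64 (adjusted p = 0.0113), Clec4e rose by 1.83 ± 0.62 (adjusted p = 0.0239) and G0s2 fell by 0.90 ± 0.25 (adjusted p = 0.00613). Il1b, at 14, 24.7 and 11.7 CPM, rose by 1.69 ± 0.58 (adjusted p = 0.0276). Stfa2l1, Pglyrp1, Trem1 and Il1r2 were the other 4 that rose, by 1.21 to 3.06. No library overlapped sham for Hp, Clec4e, G0s2 or Il1b.

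The count of 12 after co-exposure at day 4 depended on single libraries. Co-exposure library 3, with 215 CPM of Acta1, was the highest of the 28 for Ltf, Hp and Hdc; without it 10 genes were called, the 3 among them, while Pglyrp1, Il1r2 and Trem1 no longer passed and Fpr1 did. It was 5 without sham library 3, when Ltf, Hp, Lrg1, Hdc and G0s2 remained, and 7 without sham library 2 or without co-exposure library 2. Without the filter on low counts it was 6. Calls over all genes also fell, from 5072 with all libraries to 4342 without sham library 3 and 4121 without sham library 2. They were 4219 without co-exposure library 2, 3906 without co-exposure library 3 and 4508 without the filter. S100a8 had a log2 fold change of 1.57 ± 0.90 (adjusted p = 0.187, edgeR), Retnlg of 1.67 ± 0.97 (adjusted p = 0.191) and Mmp8 of 2.21 ± 0.97 (adjusted p = 0.0843). Libraries did not overlap for 21 genes that were higher and 1 that was lower, where 20.7% and 19.5% of all genes were, and the median log2 fold change was 1.07 over the 35.

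**Figure D4:**
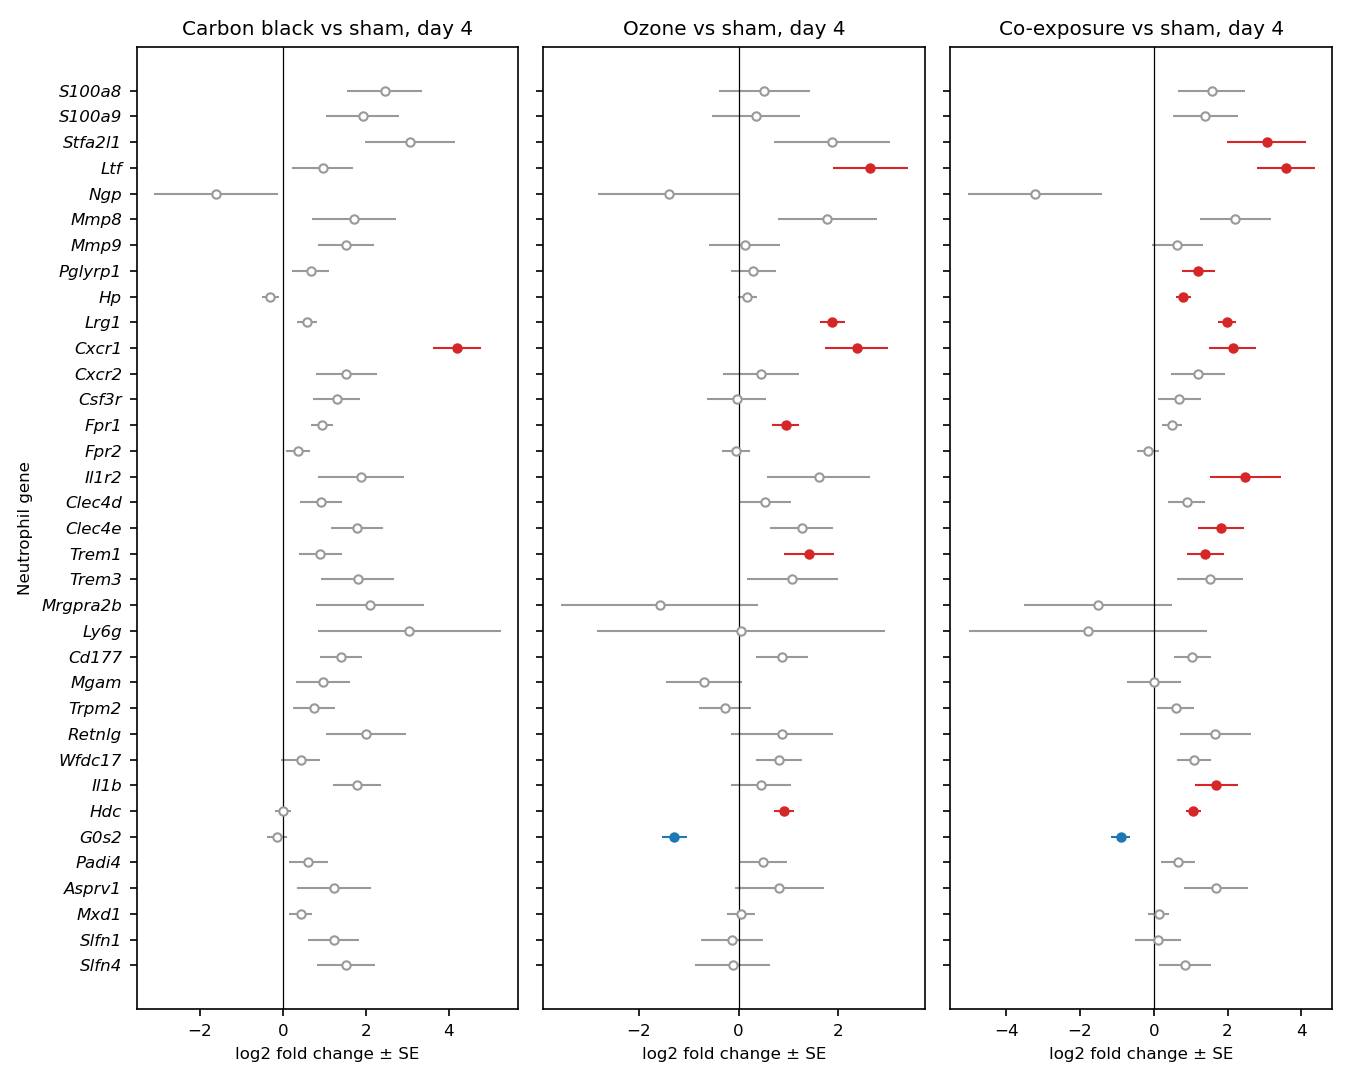
Log2 fold change ± SE of the 35 tested neutrophil genes against sham at day 4, for carbon black, ozone and co-exposure; filled points passed an adjusted p of 0.05 (red higher, blue lower). Carbon black shifts most genes to the right with only Cxcr1 filled. Cxcr1, Trem1, Ltf, Lrg1, Hdc and G0s2 are filled in both panels with ozone, so that Cxcr1 is filled in every panel.

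The 3 day 4 comparisons share the same sham libraries, so their values are given side by side. Against those libraries Ltf differed by 0.96, 2.64 and 3.58 on the log2 scale with carbon black, ozone and co-exposure, and Lrg1 by 0.59, 1.88 and 1.99. S100a8 differed by 2.46, 0.52 and 1.57 in the same order, Mmp9 by 1.52, 0.12 and 0.64, and Csf3r by 1.30, -0.04 and 0.69. Values of the last 3 genes were largest with carbon black alone and none passed the test.

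Co-exposure and carbon black alone at day 4 were compared directly, and 6 of the 35 genes passed (17.1%), a lower share than the 38.2% of all genes that did (19.3% higher and 18.9% lower). Ltf was higher with co-exposure by 2.62 ± 0.74 (log2; adjusted p = 0.00832, edgeR), Lrg1 by 1.40 ± 0.24 (adjusted p = 8.62e-05), Hp by 1.10 ± 0.20 (adjusted p = 0.0001) and Hdc by 1.06 ± 0.20 (adjusted p = 0.000208). Cxcr1 fell by 2.06 ± 0.47 (adjusted p = 0.00119) and G0s2 fell by 0.77 ± 0.25 (adjusted p = 0.0168), relative to carbon black. Libraries did not overlap for 5 genes that were higher with co-exposure (Ltf, Lrg1, Hp, Hdc and Trem1) and 8 that were lower (Cxcr1, Cd177, Ly6g, Mmp9, Mrgpra2b, Ngp, Slfn1 and Slfn4), where 19.3% and 17.5% of all genes did so. Ly6g, Mrgpra2b and Ngp were near the detection limit there, with 9, 14 and 9 counts over the carbon black group against 0, 1 and 3 with co-exposure. G0s2 was at 43.9, 16.3 and 26.9 CPM in the carbon black libraries, overlapping the 12.9, 19.2 and 18.1 of co-exposure. G0s2 did not pass without carbon black library 1 (log2 fold change -0.37) or without co-exposure library 1 (-0.61).

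Between co-exposure and ozone alone edgeR called none of the 35 genes at either day. At day 1 edgeR called 0 genes in the whole table (0%), 4 of the 35 had an unadjusted p under 0.05, and DESeq2 called 19 genes in the table and 0 of the 35. Fpr1 had the smallest p of the 35 there, with a log2 fold change of -0.76 ± 0.24 (adjusted p = 0.198). At day 4 edgeR again called 0 genes in the whole table (0%), 3 of the 35 had an unadjusted p under 0.05, and DESeq2 called 472 genes in the table and 1 of the 35, Hp. Il1b had a log2 fold change of 1.25 (adjusted p = 0.221, edgeR) at day 4. Hp was higher with co-exposure by 0.62 ± 0.20 (adjusted p = 0.105), in 3 of 3 libraries. This result rested on co-exposure library 1: without it edgeR called 2801 genes in the whole table, Hp being the 1 neutrophil gene among them, and without any other one of the 6 libraries it called 0. Libraries did not overlap for 8 genes at day 4, all higher with co-exposure, where 9.57% of all genes were higher and 9.75% lower: S100a8, Csf3r, Clec4e, Trpm2, Retnlg, Il1b, Hp and Slfn4. At day 1 they did not overlap for 6 genes, all lower with co-exposure, where 3.82% of all genes were lower and 5.13% higher.

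The ozone response at day 4 was set against that at day 1 by the difference of the 2 log2 fold changes. Of the 35 genes edgeR called 0, where 4.24% of all genes passed (2.36% higher and 1.88% lower), 4 had an unadjusted p under 0.05, and DESeq2 called 1, Fpr1. Fpr1 had a difference of 1.10 ± 0.35 (adjusted p = 0.0759), Hdc of 0.73 ± 0.26 (adjusted p = 0.129) and Ltf of 1.89 ± 0.95 (adjusted p = 0.323). The sham groups of day 4 and day 1 differed for 0 of the 35 genes with edgeR, which called 0% of all genes, and with DESeq2, and 3 had an unadjusted p under 0.05. Lrg1 was at 48.3 ± 5.5 CPM in sham at day 4 and 84.3 ± 19 at day 1 (log2 fold change -0.81 ± 0.23, adjusted p = 0.502).

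Mature-cell genes were set against granule genes library by library. The mature set held 13 genes (Cxcr2, Cxcr1, Csf3r, Fpr1, Fpr2, Il1r2, Clec4d, Clec4e, Trem1, Mrgpra2a, Mrgpra2b, Retnlg and Il1b) and the granule set 5 (Ltf, Camp, Ngp, Mmp8 and Pglyrp1), each summarised as the mean log2 CPM of its genes. Mature genes averaged 3.55, 2.12, 5.26 and 4.69 after a single carbon black exposure and 1.28, 2.32, 1.53 and 1.33 in sham. Granule genes averaged 3.11, 2.35, 5.68 and 4.80 and, in sham, 2.05, 1.72, 1.91 and 2.33. Both sets were highest in libraries 3 and 4, and library 1 stood higher for mature than for granule genes relative to the other libraries. At day 4 the mature mean was 2.80, 2.35 and 2.71 after carbon black, 1.87, 1.89 and 2.10 after ozone, 2.28, 2.62 and 1.90 after co-exposure, and 1.33, 1.39 and 1.19 in sham. All 9 exposed libraries were above sham for the mature genes at day 4.

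The granule mean at day 4 was 2.11, 2.14 and 2.83 after carbon black, 3.20, 2.10 and 2.93 after ozone, 2.69, 2.97 and 3.03 after co-exposure, and 2.69, 1.74 and 1.28 in sham, and the sham range reached the lowest library of each exposed group. The mature mean minus the granule mean averaged 0.26 after carbon black at day 4, -0.79 after ozone, -0.63 after co-exposure and -0.60 in sham, which ranks libraries but says nothing of absolute levels because gene lengths differ. Ltf weighed heavily in it: without Ltf the 4 values were 1.32, 0.64, 0.98 and 0.39. At day 1 co-exposure gave the lowest mature means of any group, 1.07, 1.12, 0.55 and 0.76. No test was made of these means, since the genes were chosen from these data.

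Further neutrophil genes that are not among the 38 were read from a list of 35, 30 of them tested. After a single carbon black exposure 14 were called, all higher (median log2 fold change 0.79, beside 1.66% of all genes called), among them the integrin Itgam, at 81.4 against 27.1 CPM. After carbon black at day 4 the count was 1 higher (Ceacam1), after ozone 5 higher and 2 lower, and after co-exposure 7 higher and 2 lower, beside 0.208%, 20.8% and 34.1% of all genes called. Lcn2, which encodes lipocalin 2, a siderophore-binding granule protein also made by epithelium, rose by 2.09 ± 0.25 with ozone at day 4 (adjusted p = 2.08e-06, edgeR), from 82.1 to 350 CPM, as Ltf did. Of 10 primary granule genes 2 were tested. Mpo and Elane, which define these granules, were at no more than 0.309 and 0.293 CPM in any library and were not tested, and the list's level was nearly all Chil3, a chitinase-like protein that alveolar macrophages also make, at 282 to 1400 CPM. Chil3 rose at day 4 with ozone by 1.38 ± 0.30 (adjusted p = 0.00183) and with co-exposure by 1.13 ± 0.30 (adjusted p = 0.00519). Of 19 recruitment ligands and related factors 10 were tested. At day 1 the calls were 1 higher with carbon black (Ppbp), 1 with ozone (Lif) and 2 with co-exposure (Lif and Cxcl5). Ppbp is also counted among the platelet genes below. Over all genes 1.66%, 11.5% and 19.2% were called at day 1 in that order. At day 4 none was called with carbon black, 2 higher and 2 lower with ozone, and 3 higher and 2 lower with co-exposure. Cxcl5, a chemokine that binds Cxcr2, rose with co-exposure at day 1 from 0.438 to 2.52 CPM (adjusted p = 0.00485, edgeR) and at day 4 from 0.274 to 1.49 CPM (log2 fold change 2.47 ± 0.79, adjusted p = 0.0169). Cxcl1 and Cxcl2 reached at most 1.42 and 1.21 CPM and were not tested.

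Blood cell markers differed between the same groups. After a single carbon black exposure the summed level of 10 platelet genes was 93.2, 111, 165 and 105 CPM, against 45.9 to 55.6 in sham, and 5 of the 10 passed the threshold, all higher. It was also high in carbon black day 1 library 2, in which S100a8 was low. Summed erythrocyte genes were at 8970, 31000, 21500 and 16800 CPM in carbon black day 1 libraries 1 to 4 and at 9700 to 12700 in sham. The sum was highest in library 2, but the median log2 CPM of the 12 genes was highest in library 3. That median was 3.82, 5.50, 6.09 and 5.86 after carbon black and 3.34 to 4.24 in sham, and 5 of 11 tested genes were called higher. At day 4 the sums were 30700, 22200 and 11200 CPM in sham, 11600 to 16700 after carbon black, 5060 to 9070 after ozone and 3980 to 6930 after co-exposure. In the last 2 groups 7 and 9 of 11 tested erythrocyte genes fell. The 12 alveolar macrophage genes summed to 1100 to 1240 CPM in sham at day 1, 1560 to 1790 after carbon black, 1140 to 1350 after ozone and 694 to 1080 after co-exposure. At day 4 the 12 genes summed to 720 to 909 CPM in sham, 1280 to 1380 after carbon black, 1370 to 1750 after ozone and 891 to 1880 after co-exposure. Chil3 was a large part of these sums, at 489 to 673 CPM in sham at day 1 and 773 to 1320 after carbon black. Of the 12 genes 1 was called higher after a single carbon black exposure (median log2 fold change 0.24). At day 4 the calls were 2 higher with carbon black, 4 higher and 1 lower with ozone, and 5 higher and 2 lower with co-exposure. Of the 12 monocyte genes 3 were higher after a single carbon black exposure (median log2 fold change 0.75), and none was called after carbon black at day 4 (median 0.41). The part of blood content and of other cells in the neutrophil gene levels was not tested.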

How the data were processed

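Whole-lung polyadenylated RNA was sequenced as stranded, 51-base paired reads, per the labels' protocols. The deposited values are estimated counts per gene made by the authors, with Salmon 1.1.0, R 3.6.3, DESeq2 and the mm10 build named in the submitters' processing notes. Of the deposited counts 17.7% were not whole, and all were rounded first. Gene names, lengths and positions came from GENCODE M21, and promoter windows from RefSeq (GRCm38.p6). The neutrophil genes, the other gene lists and the mature and granule sets were chosen with earlier results of these data known.

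One edgeR 4.0.16 quasi-likelihood model (R 4.3.3) was fitted to all 28 libraries with 8 groups and TMM scaling (factors 0.902 to 1.05). It tested the 14887 genes that passed edgeR's expression filter, with 20 residual degrees of freedom, Benjamini-Hochberg adjustment over all of them and a threshold of 0.05. SE is the standard error of the log2 fold change, taken as its absolute value divided by the square root of the F statistic. SD is the spread between libraries. Log2 CPM values were made with a prior count of 2. CPM per kb divides by the length of all annotated exons of a gene, overlaps counted once. Fold intervals of low genes are exact at the 95% level with a floor of 3 counts. In each comparison all neutrophil genes past the threshold were named, or the 8 with the smallest p where there were more, and up to 3 genes of each other list. The code was checked on simulated counts. Alternatives were median-of-ratios scaling, no expression filter, DESeq2 1.42.0, the compared groups alone, a replicate block and each library left out in turn. Leaving out library 2 of sham and of carbon black at day 1 together, and leaving Ltf out of the granule set, were chosen after seeing the data. Same-numbered libraries did not deviate together, so the numbers were not taken as pairs.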

Additional observations from a re-analysis of the deposited data

Results flagged for a closer look

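In 48 sets of 4 day 1 libraries (a gene in a group) the distance of the outermost library to its neighbour was compared with the whole range, against Dixon's limit of 0.829 for 4 libraries. Chance passes this limit in about 1 in 20 such sets. Sham day 1 library 2 stood above its group for 4 genes: Cxcr2 at 18.1 CPM (3.44 to 5.89 in the other libraries), Mmp9 at 20 CPM (5.28 to 7.17), Il1b at 14.4 CPM (4.1 to 5.38) and Ngp at 1.33 CPM (0.128 to 0.265). The same library held 607 CPM of Acta1, and the part of its muscle and fat transcripts in these levels was not tested. Csf3r in ozone day 1 library 4 lay below its group, at 6.87 CPM against 9.32 to 9.79. Retnlg in co-exposure day 1 library 3 lay below its group, at 2.82 CPM against 5.84 to 6.43.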

How the results depend on the processing

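Counts are of the 35 neutrophil genes past the threshold. Median-of-ratios scaling left each of the 11 counts as it was. In fits of the compared groups alone they were 0 for carbon black at day 1, which chose the genes and is a description only (29 in the fit of all groups), 4 for ozone at day 1 (2), 12 for co-exposure at day 1 (7), 0 for carbon black at day 4 (1) and 3 for the difference of the ozone responses (0). Over all genes the fits of the compared groups alone gave 2220 calls for ozone (1705) and 2787 for co-exposure (2854) at day 1. For co-exposure at day 1 the neutrophil count was thus higher than in the fit of all groups, while the count over all genes was not. Without the expression filter co-exposure at day 4 gave 6 (12), and 4508 (5072) over all genes. DESeq2 gave 1 for co-exposure against ozone at day 4 (0) and 1 for the difference of the ozone responses (0).

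With each library left out in turn the counts ran from 20 to 30 for carbon black, 1 to 2 for ozone and 3 to 8 for co-exposure at day 1, and were 1 throughout for carbon black, 3 to 7 for ozone and 5 to 10 for co-exposure at day 4. They ran from 0 to 1 for co-exposure against ozone at day 4 and from 5 to 6 against carbon black, and were 0 in the other 3 comparisons.

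The labels' replicate numbers do not pair libraries: deviations from the group means correlated with a median of 0.01 for the same number (-0.26 to 0.48) and -0.01 for other numbers, and 19 of 90 same-numbered pairs exceeded 0.1. With the replicate number as a block the counts were 27, 2 and 7 for carbon black, ozone and co-exposure at day 1 and 1, 6 and 11 at day 4. The block gave 7 for co-exposure against carbon black at day 4 and 0 in the other 4 comparisons. Over all genes it gave 207, 1737 and 2855 for carbon black, ozone and co-exposure at day 1. At day 4 it gave 32, 3088 and 5125 in the same order, and 5722 for co-exposure against carbon black.

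The sign of the mature mean minus the granule mean turned without Ltf, to 0.78 (sham), 0.56 (carbon black), 0.85 (ozone) and 0.50 (co-exposure) at day 1 and to 0.39 (sham), 0.64 (ozone) and 0.98 (co-exposure) at day 4. Without Mmp8, Pglyrp1 and Il1b it turned to 0.10 for sham and 0.57 for carbon black at day 1 and 0.05 for co-exposure at day 4. The cause of these changes was not tested.

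Over all genes, the compared groups alone gave 7 calls for carbon black at day 1 (247 in the fit of all groups), 7 for carbon black at day 4 (31), 3175 for co-exposure at day 4 (5072), 2373 for co-exposure against carbon black (5687) and 1125 for the difference of the ozone responses (631). DESeq2 gave 175 for carbon black at day 4, and 19 and 472 for co-exposure against ozone at day 1 and day 4 (0 and 0), where the block gave 177 at day 4. With single libraries left out, the calls over all genes ran from 75 to 357 for carbon black at day 1, from 904 (without ozone library 4) to 1519 for ozone at day 1 (1705), from 1771 (without co-exposure library 3) to 2965 for co-exposure at day 1 (2854), and from 8 to 644 (without carbon black library 3) for carbon black at day 4. They were 2801 for co-exposure against ozone at day 4 without co-exposure library 1, and 355 to 624 for the difference of the ozone responses. At day 4 they ran from 2109 to 2624 for ozone (3090) and from 3906 to 5426 for co-exposure (5072). Co-exposure against carbon black gave 4323 to 6305 (5687). Genes under about 1 CPM rest on few counts per library; Cxcr1, Stfa2l1 and Il1r2 were called at day 4 from such sham levels, and Stfa2, Camp and Mrgpra2a were too low to test.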
